A study of Mus musculus with 9 samples.

Results

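Sec16b and the COPII coat genes are 10 genes that act where new secretory proteins leave the endoplasmic reticulum (ER): Sec16a, Sec16b, Sar1a, Sar1b, Sec23a, Sec23b, Sec24a, Sec24d, Sec31a and Sec13. They are 10 of the 51717 genes to which the quantified transcripts were assigned, and all 10 were among the 13064 that passed the filter on low counts. They lie on chromosomes 1 (Sec16b), 2 (Sec16a and Sec23b), 3 (Sec24d), 5 (Sec31a), 6 (Sec13), 10 (Sar1a), 11 (Sar1b and Sec24a, next to each other on opposite strands) and 12 (Sec23a). The set was assembled around Sec16b because of its large rise with knockdown of Sirpa. The set was thus chosen by the knockdown and control values of Sec16b. The change of Sec16b with knockdown and its difference between the perturbed lines are given as a description with no test. Its comparison of overexpression with control was tested, although that shares the control libraries that helped choose the gene.

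The cells were B16F10, a melanin-producing mouse melanoma line, grown in complete DMEM medium. The 3 lines compared were a non-target control (NTC), a line with SIRPA knockdown and a line with SIRPA overexpression, and all carry the B16F10 background. SIRPA is a surface receptor of myeloid cells that, on binding CD47, restrains phagocytosis. Total RNA of 3 biological repeats of each line was sequenced as mRNA, giving 9 libraries in all. Each condition is 1 line, and the labels do not give the vector, the promoter, the hairpin or guide, or whether a line is a clone or a pool. The p-values therefore reflect how far repeats of 1 line vary, and not how far independently made lines would.

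COPII is the protein coat that forms vesicles at ER exit sites. The small GTPase Sar1, loaded with GTP by the membrane protein Sec12 (gene Preb), inserts into the ER membrane and recruits the inner coat of Sec23 and Sec24. Sec24 binds the cargo, Sec23 stimulates hydrolysis by Sar1, and the outer cage of Sec13 and Sec31 then bends the membrane. Sec16 is the scaffold that marks the exit sites and binds the coat proteins. Sec16a is the large, widely used form, and Sec16b is a shorter relative that can also be found at exit sites and has been tied to the transport of peroxisomal proteins. Most mammalian coat subunits likewise come as paralogues, such as Sar1a and Sar1b or Sec23a and Sec23b.

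Library totals ran from 16.4 to 22.38 in units of 1000000 estimated counts. Levels are in counts per 1000000 (CPM), which compare 1 gene between libraries, or in transcripts per 1000000 (TPM), which correct for length and compare genes with each other. Sirpa itself had 289 to 303 CPM in the control libraries, 112 to 118 CPM in the knockdown libraries and 895 to 914 CPM in the overexpression libraries, as the labels say. All 7 melanocyte markers examined were present, among them Pmel, Tyr, Dct, Mitf and Sox10. Among leukocyte markers Ptprc, Adgre1 and Cd3e had 0 counts in every library, and Cd68 and Lyz2 reached 1 CPM in a line.

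Sec16b was detected in every library and was lowest in the control line. It had 2.08, 2.30 and 1.04 CPM in control, from 34, 38 and 21 estimated counts. It had 19.3, 15.8 and 20.0 CPM with knockdown, from 428, 265 and 329 counts. It had 4.24, 6.18 and 5.85 CPM with overexpression, from 90, 105 and 102 counts. The libraries of the 3 lines did not overlap: every overexpression library lay above every control library and below every knockdown library. Sec16b thus stood higher both in the line with less Sirpa and in the line with more of it.

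The knockdown level of Sec16b was 10.3-fold that of control, a log2 fold change of 3.36 ± 0.25 (SE, the standard error of the fit). This value is part of what chose the gene and carries no test. With overexpression Sec16b was 3.03-fold higher than control (log2 fold change 1.60 ± 0.25 SE, adjusted p = 0.000239, 3 of 3 libraries above control). Adjusted p-values come from the quasi-likelihood test of edgeR, corrected by the Benjamini-Hochberg method over all 13064 genes, and a gene is called under 0.05. The overexpression comparison uses the same control libraries that helped choose the gene, so it is not fully separate from that choice. Low control values would raise both folds, and the p-value for overexpression cannot count as independent of the choice. Overexpression lay 3.4-fold below knockdown (log2 fold change -1.76 ± 0.22 SE), again with no test. These are bulk RNA samples, in which fewer cells that express a gene and less RNA per cell cannot be told apart.

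**Figure D1:**
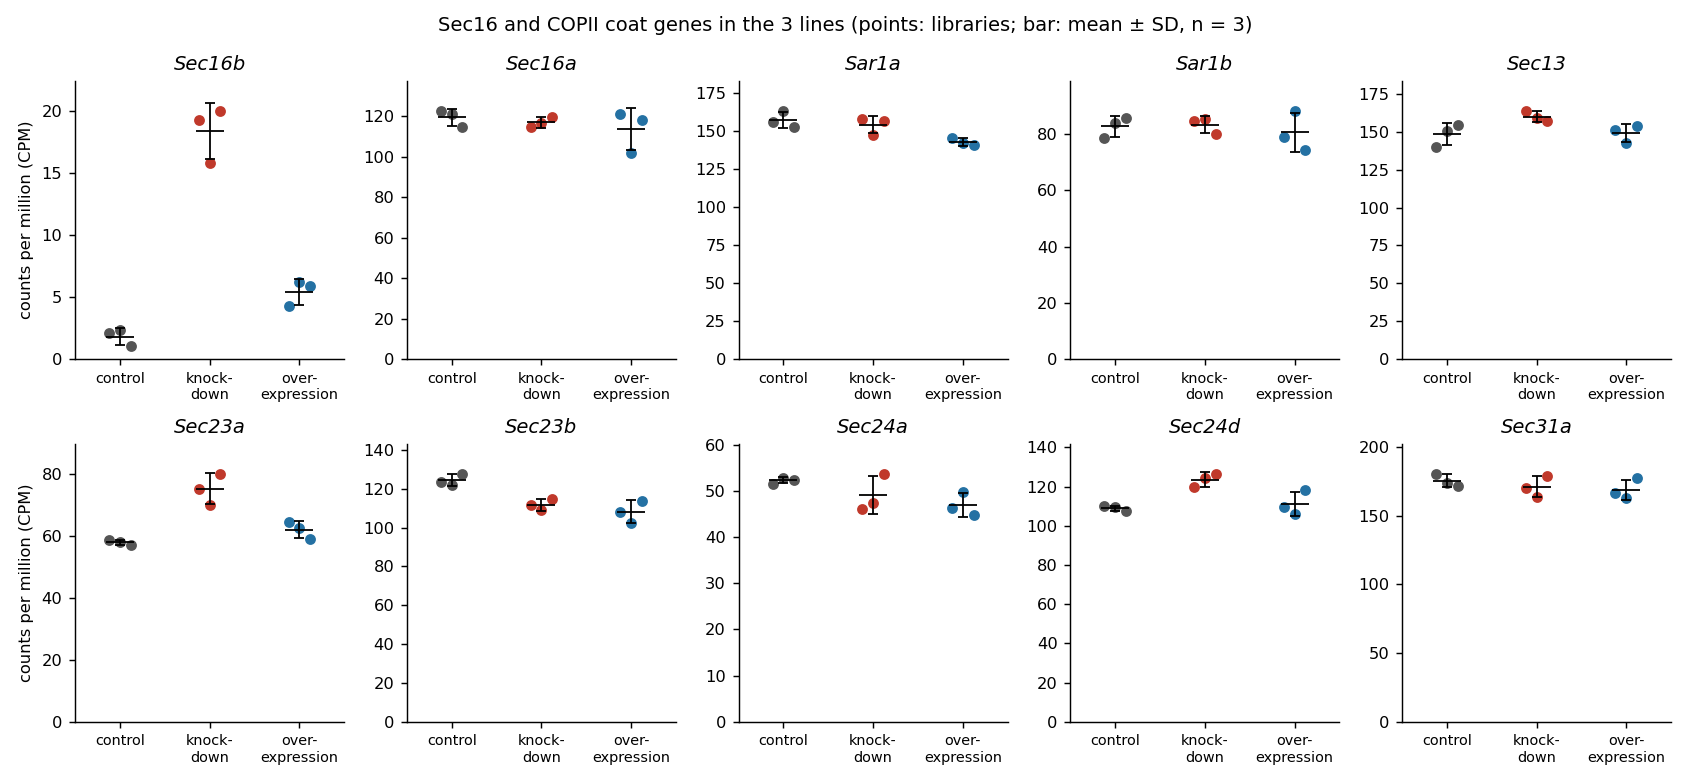
Level of each of the 10 genes in CPM (vertical axis, starting at 0 in each panel) in the 9 libraries, by line. Points are libraries and bars give mean ± SD of 3; the Sec16b libraries of the 3 lines do not overlap, while the other 9 genes differ far less between lines.

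Markers of tissues in which Sec16b is well known, liver and intestine, did not come with it. Of 8 hepatocyte and enterocyte markers none reached 1 CPM in any line, and Alb, Fabp1, Fabp2, Cdx2 and Hnf4a had 0 counts in all 9 libraries. Their summed level was 0 to 1.59 CPM in control, 0.486 to 1.49 CPM with knockdown and 0.0472 to 1.26 CPM with overexpression. The summed leukocyte markers were 1.78 to 3.25, 3.69 to 4.80 and 2.55 to 3.55 CPM in the same order. Markers of other cell types (Col1a1, Pdgfra and Cdh1 among 10) summed to 59.3 to 62.9 CPM in control, 6.96 to 11.9 CPM with knockdown and 67.4 to 74.5 CPM with overexpression, and Cdh5, Kdr, Epcam, Krt8 and Krt18 had 0 counts. The part of these marker shifts in the Sec16b levels was not tested.

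Sec16b has more than 1 annotated start, which is why its sequences are shown here. In the GENCODE annotation of GRCm38 the transcripts Sec16b-201, Sec16b-202 and Sec16b-203 hold the same 25 coding exons, with 3153 coding bases, and differ in their first exons. Sec16b-201 starts 82 bases downstream of Sec16b-202, and Sec16b-203 starts 19419 bases downstream of it, on chromosome 1. The bases just upstream of the first start (RefSeq window, GRCm38.p6, chr1:157506546-157506727, plus strand) and of the second start (chr1:157525920-157526146, plus strand, within an intron of Sec16b-202) read as follows, 5′ to 3′, with nothing marked.
Sec16b, upstream of the first start: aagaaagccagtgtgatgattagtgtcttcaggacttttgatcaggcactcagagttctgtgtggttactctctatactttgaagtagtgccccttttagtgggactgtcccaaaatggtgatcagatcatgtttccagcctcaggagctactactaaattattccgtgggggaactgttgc
Sec16b, upstream of the second start: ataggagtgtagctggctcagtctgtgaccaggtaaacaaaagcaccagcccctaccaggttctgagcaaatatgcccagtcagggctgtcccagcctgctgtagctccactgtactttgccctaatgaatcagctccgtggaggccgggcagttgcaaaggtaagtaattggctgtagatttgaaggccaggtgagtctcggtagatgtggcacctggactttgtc

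Most of the Sec16b signal with knockdown was assigned to the first start. The summed TPM of Sec16b-201 and Sec16b-202 was 0.688, 0.709 and 0.320 in control, 6.27, 5.17 and 4.59 with knockdown, and 1.4, 0.166 and 1.92 with overexpression. Sec16b-203 was at 0 in all control libraries, at 0, 0 and 2.26 TPM with knockdown, and at 0, 1.70 and 0 TPM with overexpression. The second start thus received reads in 1 knockdown and 1 overexpression library, and in that overexpression library it held most of the gene. The knockdown and control libraries did not overlap for the first start, whereas the overexpression libraries ran from below to above the control libraries. Assignments among transcripts that share all coding exons are less certain than the gene total, and the split between Sec16b-201 and Sec16b-202 changed from library to library.

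Sec16a, the main scaffold, did not follow Sec16b. It had 123, 121 and 115 CPM in control, 115, 116 and 119.7 CPM with knockdown, and 121, 102 and 118 CPM with overexpression. The lines overlapped, and neither comparison with control was called (log2 fold change -0.03 ± 0.06 SE, adjusted p = 0.739 for knockdown and -0.07 ± 0.06 SE, adjusted p = 0.463 for overexpression). Per length, Sec16a was at 24.01 ± 0.231, 25.6 ± 1.55 and 26.2 ± 3.37 TPM (mean ± SD, n = 3) in control, knockdown and overexpression. Sec16b was at 0.572 ± 0.219, 6.10 ± 0.854 and 1.86 ± 0.434 TPM in the same order. Sec16b therefore made up 2.32% ± 0.86 of the summed Sec16 transcripts in control, 19.3% ± 2.7 with knockdown and 6.81% ± 2.3 with overexpression (SD, n = 3).

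Sec16b was the lowest of the 10 genes per length in every line, below Sec24a by more than the spread of the libraries. In control the order of mean TPM was Sec13 at 192, Sar1b at 123, Sar1a at 109.5, Sec23b at 97.0, Sec31a at 81.3, Sec24d at 41.1, Sec16a at 24.01, Sec23a at 21.5, Sec24a at 17.4 and Sec16b at 0.572. The libraries of neighbours in this order did not overlap in control. With knockdown Sec23a, at 27.4 to 33.6 TPM, stood above Sec16a, at 23.9 to 26.9 TPM, the reverse of their order in control. The libraries of Sar1b and Sar1a, and of Sec31a and Sec23b, overlapped with knockdown. With overexpression those of Sec31a and Sec23b, and of Sec16a and Sec23a, overlapped.

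The other coat genes moved little beside Sec16b. With knockdown 3 of the 9 other members were called, Sec23a and Sec24d higher and Sec23b lower, where 35.4% of all genes tested were called in that comparison (18.0% higher and 17.4% lower). That contrast helped choose the set, and nothing is read from the count. With overexpression 3 of 10 members were called, Sec16b higher and Sar1a and Sec23b lower, against 24.3% of all genes tested (13.1% higher and 11.1% lower), a share near the background. The Sec16b call in this count rests on the control libraries that helped choose the gene. Between overexpression and knockdown 2 of the 9 other members were called, Sec23a and Sec24d, both lower with overexpression, against 22.1% of all genes tested (11.0% higher and 11.1% lower). The median log2 fold change of the 9 members was -0.03 with knockdown, and that of the 10 members was -0.05 with overexpression, where the medians over all genes were -0.008 and -0.001. The comparisons with control share the control libraries.

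**Figure D2:**
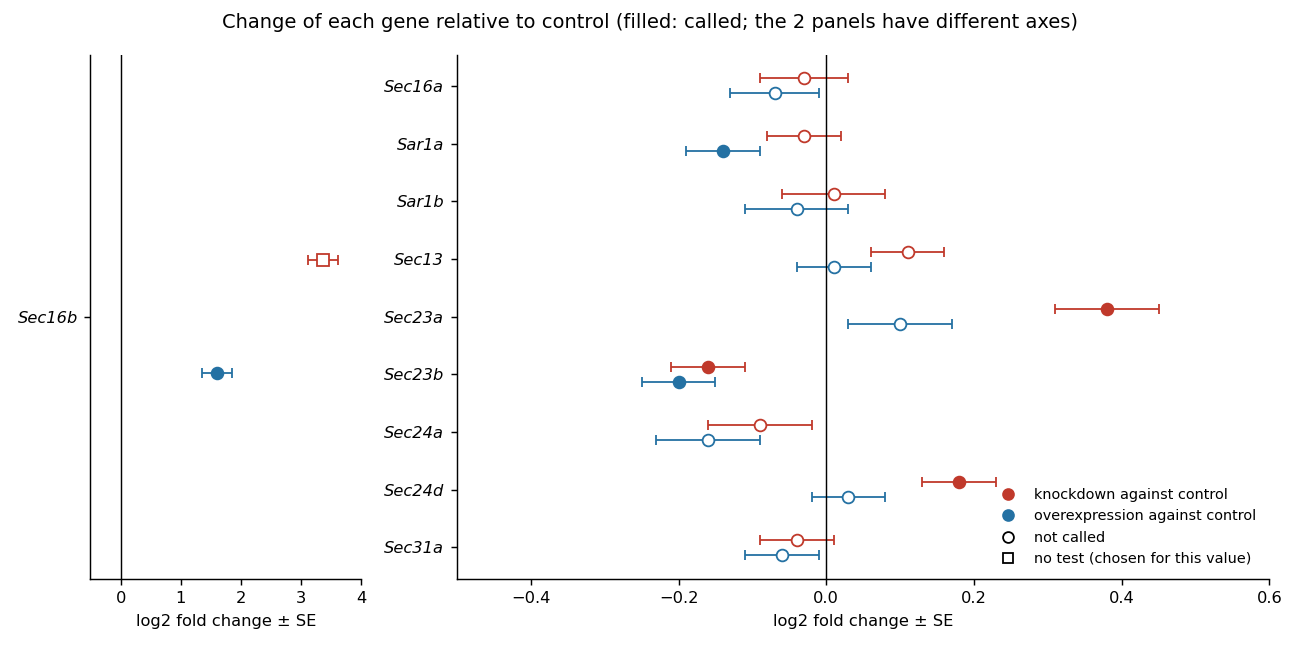
Log2 fold change ± SE of each gene against control (horizontal axis), knockdown in red and overexpression in blue, with Sec16b in its own panel because its axis is wider. Filled circles passed the test and the open square carries none; Sec23a at 0.38 with knockdown is the furthest from 0 among the other 9 genes.

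The Sar1 GTPases start coat assembly, and Sar1b is the form needed for large lipid-carrying particles in the intestine. Sar1a had 156, 163 and 153 CPM in control, 158, 148 and 157 CPM with knockdown, and 145, 142 and 141 CPM with overexpression. All 3 overexpression libraries lay below all control libraries, and Sar1a fell by 9.28% with overexpression (log2 fold change -0.14 ± 0.05 SE, adjusted p = 0.0333). It was not called with knockdown (-0.03 ± 0.05 SE, adjusted p = 0.67). The Sar1a call rested on single libraries and on the settings of the fit. It was lost without control 1 (adjusted p = 0.0771), control 2 (0.163) and overexpression 1, 2 or 3 (0.0565, 0.0876 and 0.101). It was also lost with an offset for average transcript length, which brought the log2 fold change to -0.06 (adjusted p = 0.659). The call was lost as well with no filter on low counts (0.0521) and with replicate number as a block (0.0505). Without knockdown 2, Sar1a was called lower with overexpression than with knockdown (adjusted p = 0.0412, and 0.0927 with all libraries).

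Sar1b had 78.6, 83.9 and 85.7 CPM in control, 84.8, 85.3 and 80.0 CPM with knockdown, and 79.1, 88.3 and 74.5 CPM with overexpression. The 3 lines overlapped, and no comparison was called (adjusted p = 0.919, 0.745 and 0.664 for knockdown, overexpression and the difference between them). The balance of the pair stayed close: Sar1b held 52.8% ± 2.3 of Sar1 TPM in control, 52.2% ± 2.9 with knockdown and 53.2% ± 2.0 with overexpression (SD, n = 3).

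Sec23 is the inner-coat subunit that stimulates Sar1, and its paralogues moved apart. Sec23a had 58.6, 58.1 and 57.1 CPM in control, 75.2, 70.1 and 80.1 CPM with knockdown, and 64.4, 62.7 and 58.9 CPM with overexpression. Both perturbed lines lay above control in every library, and knockdown lay above overexpression in every library. Sec23a rose by 29.7% with knockdown (log2 fold change 0.38 ± 0.07 SE, adjusted p = 0.000364) and was not called with overexpression (0.10 ± 0.07 SE, adjusted p = 0.327). The difference between the perturbed lines was called (-0.28 ± 0.07 SE, adjusted p = 0.00652). Across all 17 alternative settings the knockdown value ran from 0.33 to 0.43 and was called in each. An antisense gene, Gm17529, overlaps Sec23a and reached at most 0.238 CPM in a library, and the libraries do not mark strand.

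Sec23b had 123, 122 and 128 CPM in control, 111, 109 and 115 CPM with knockdown, and 108, 102 and 114 CPM with overexpression. Every library of both perturbed lines lay below every control library. Sec23b fell by 10.2% with knockdown (log2 fold change -0.16 ± 0.05 SE, adjusted p = 0.029) and by 13.1% with overexpression (-0.20 ± 0.05 SE, adjusted p = 0.00947). The knockdown call was lost without control 1, 2 or 3 (adjusted p = 0.0684, 0.0542 and 0.123), without knockdown 1 or 2 (0.0707 and 0.0861) and with the transcript length offset, where the log2 fold change was -0.23 (0.0505). The overexpression call was lost without overexpression 2 (adjusted p = 0.0534). Within the pair, Sec23a held 18.1% ± 0.5 of Sec23 TPM in control, 25.6% ± 0.79 with knockdown and 22.5% ± 1.8 with overexpression (SD, n = 3), and the libraries of the 3 lines did not overlap.

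The short coding transcript of Sec23b was lower in both perturbed lines. Sec23b-203, with 944 bases and 7 exons, had 33.0, 32.7 and 35.1 TPM in control, 18.1, 27.2 and 28.9 TPM with knockdown, and 24.8, 17.5 and 23.7 TPM with overexpression. No perturbed library reached the control range. The full coding transcript Sec23b-201 (35.9, 42.3 and 41.3 TPM in control) overlapped control in both perturbed lines, at 44.2, 29.8 and 32.9 TPM with knockdown and 25.9, 40.1 and 42.7 TPM with overexpression. The Sec23a signal was mainly that of Sec23a-201, at 18.8, 20.5 and 18.0 TPM in control, 27.4, 23.6 and 26.4 TPM with knockdown, and 21, 22.8 and 21.9 TPM with overexpression.

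Sec24 is the cargo-binding subunit, and its 4 mammalian forms fall into the pairs Sec24a with Sec24b and Sec24c with Sec24d. Sec24d had 110.0, 109.5 and 107 CPM in control, 119.6, 125 and 127 CPM with knockdown, and 109.6, 106 and 118 CPM with overexpression. The knockdown libraries lay above all others, while overexpression overlapped control. Sec24d rose by 13.4% with knockdown (log2 fold change 0.18 ± 0.05 SE, adjusted p = 0.0124), a call kept in all 17 alternative settings. It was not called with overexpression (0.03 ± 0.05 SE, adjusted p = 0.752).

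Sec24d was called lower with overexpression than with knockdown (log2 fold change -0.15 ± 0.05 SE, adjusted p = 0.0456), a call that many single libraries decided. For Sec24d the adjusted p was 0.0662, 0.0657 and 0.0522 without control 1, 2 or 3, and 0.0899 and 0.107 without knockdown 2 or 3. It was 0.12 and 0.156 without overexpression 1 or 2. With the length offset the log2 fold change of Sec24d was -0.06 (adjusted p = 0.57), and the call was also lost with no filter (0.0579), with the replicate block (0.0592) and with only these 2 lines in the fit (0.0811). Within the Sec24 family, Sec24d held 24.5% ± 1.4 of TPM in control, 27.4% ± 0.82 with knockdown and 27.5% ± 1.7 with overexpression (SD, n = 3). The knockdown shares lay above all control shares, while those with overexpression (25.6% to 28.8%) overlapped control (23.6% to 26.0%).

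For Sec24a the transcripts separated the lines where the gene count did not pass the test. Its counts were 51.5, 52.8 and 52.4 CPM in control, 46.1, 47.2 and 53.7 CPM with knockdown, and 46.4, 49.7 and 44.8 CPM with overexpression. The overexpression libraries lay below control and the knockdown libraries overlapped it, and neither comparison was called (log2 fold change -0.09 ± 0.07 SE, adjusted p = 0.361, and -0.16 ± 0.07 SE, adjusted p = 0.147). Per length the gene was at 17.4 ± 0.25 TPM in control, 13.7 ± 2.44 TPM with knockdown and 13.2 ± 0.284 TPM with overexpression (SD, n = 3), and no perturbed library reached the control range. With average transcript length as an offset, Sec24a was called lower in both (log2 fold change -0.41, adjusted p = 0.0188 with knockdown and -0.45, adjusted p = 0.0217 with overexpression).

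The transcripts of Sec24a show where these scales part. Sec24a-202, which has 2104 bases and 11 exons and ends early, had 4.03, 2.84 and 3.64 TPM in control, 0 TPM in all 3 knockdown libraries, and 0.658, 0 and 2.02 TPM with overexpression. Sec24a-204, with 6581 bases and 23 exons, had 6.03, 5.01 and 5.48 TPM in control, 8.37, 7.68 and 7.71 TPM with knockdown, and 6.89, 7.77 and 7.50 TPM with overexpression. Sec24a-202 was thus lower and Sec24a-204 higher in every library of both perturbed lines than in control. Sec24a-201, with 3800 bases and 23 exons, had 6.18, 9.57 and 7.85 TPM in control. It had 2.88, 5.06 and 8.04 TPM with knockdown, and 5.15, 5.29 and 3.59 TPM with overexpression. Sec24a-201 thus overlapped control with knockdown and lay below it with overexpression. The split among these transcripts is less certain than the gene total. A small nucleolar RNA gene lies within Sec24a and is not listed in the tables.

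**Figure D3:**
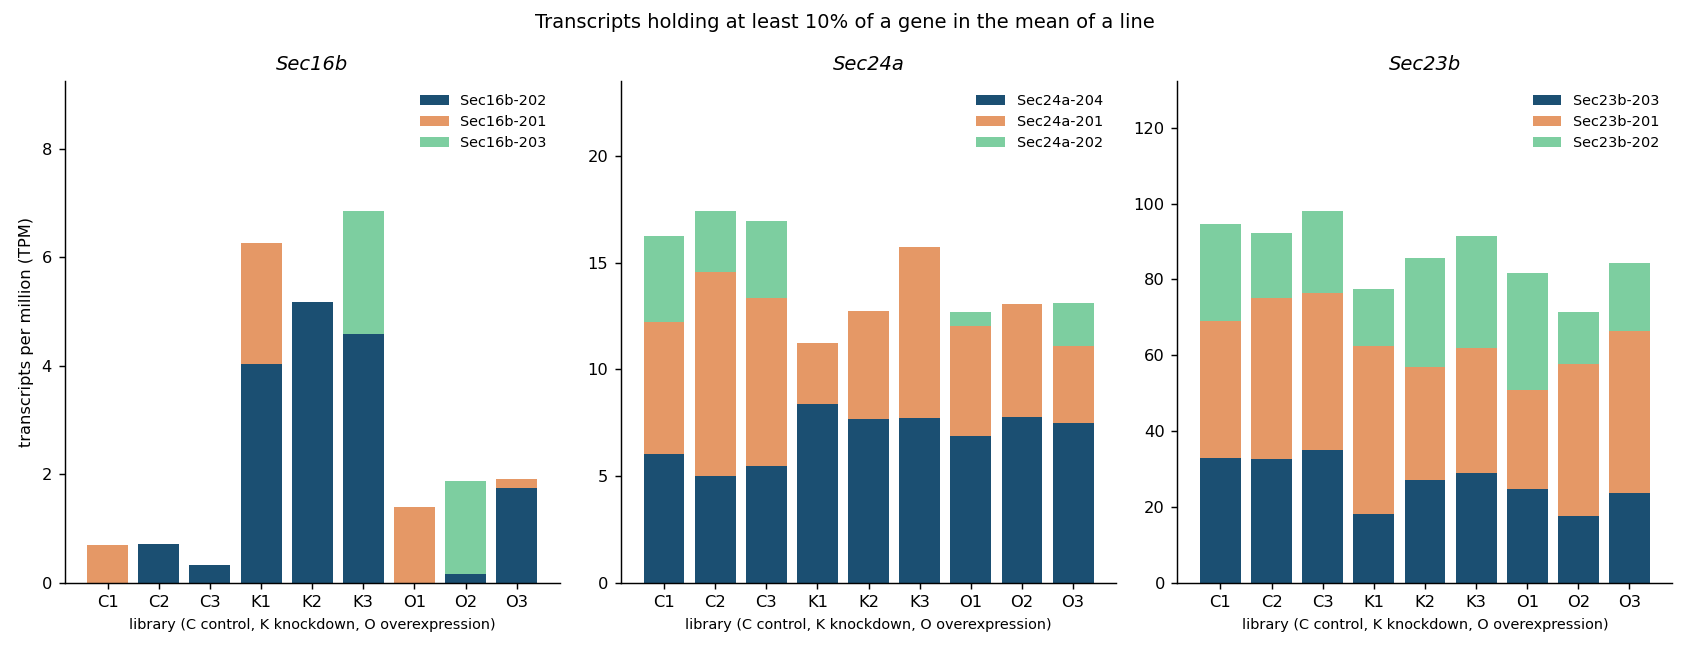
TPM (stacked, vertical axis from 0) of the transcripts that hold at least 10% of Sec16b, Sec24a or Sec23b in the mean of a line, in each of the 9 libraries (C control, K knockdown, O overexpression). Sec16b-203 appears in 1 knockdown and 1 overexpression library, and Sec24a-202 is at 0 in the knockdown libraries.

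No outer cage gene was called in either line. Sec31a had 181, 174 and 172 CPM in control, 170.5, 164 and 179 CPM with knockdown, and 166, 163 and 177 CPM with overexpression. The lines overlapped and no comparison was called (adjusted p = 0.604 with knockdown, 0.454 with overexpression). Sec13, which is also a part of the nuclear pore and of a nutrient-sensing complex, had 140.1, 151 and 154 CPM in control, 164, 159 and 157 CPM with knockdown, and 151, 143 and 154 CPM with overexpression. The knockdown libraries all lay above control, but the difference was not called (log2 fold change 0.11 ± 0.05 SE, adjusted p = 0.0923), and overexpression overlapped control (0.01, adjusted p = 0.928).

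The gene start of Sec16b holds a short element that also lies at those of Sec23a and Sec24d. The element is TGACGTGG on either strand (reverse complement CCACGTCA), the core of the unfolded protein response element. It was chosen for the search after the Sec16b sequence had been seen. All 10 members matched RefSeq windows of 300 bases (250 before and 50 after a gene start), 13 windows in all. The window at the first start of Sec16b holds the element by choice. Of the 11 windows of the other members 2 hold it, and of all 32851 windows 0.676% do. Nothing is read from this count, since the set and the element were both chosen by way of Sec16b. The sites, of 30 bases each with the element in capitals, are in GRCm38.p6: chr1:157506741-157506770 (plus strand) for Sec16b, chr3:123267459-123267488 (plus strand) for Sec24d and chr12:59011993-59012022 (minus strand) for Sec23a.
Sec16b: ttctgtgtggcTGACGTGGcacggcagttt
Sec24d: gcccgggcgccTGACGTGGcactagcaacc
Sec23a: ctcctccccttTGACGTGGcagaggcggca

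The element begins 44 bases before the RefSeq start of Sec16b, 26 bases before that of Sec24d and 6 bases after that of Sec23a, in the direction of the gene each time. In the GENCODE annotation all 3 sites fall in a first exon, 24, 15 and 6 bases after the first base of Sec16b-202, Sec24d-201 and Sec23a-201. The window at the second start of Sec16b holds no copy. Of the other motifs searched on both strands, the ER stress element (0.119% of windows) and the cAMP response element TGACGTCA (1.79%) were in no member window, and the E-box CACGTG (7.15%) was in that of Sar1a. These are matches of letters and say nothing of binding.

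The element was then looked up in every tested gene. Of 101 tested genes with the element in a window, 19.8% were called higher and 15.8% lower with knockdown, with a median log2 fold change of 0.00. Of the 9750 tested genes with a window, 19.2% were called higher and 17.9% lower, with a median of -0.01. Without the 3 members, 17.3% of the remaining 98 were higher and 16.3% lower. With overexpression the shares were 14.9% higher and 10.9% lower among the 101 genes and 13.8% and 11.6% among the 9750. In both comparisons the shares with the element thus lay near those of all genes with a window. The part of the element in any change was not tested.

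The nearest gene on each side of Sec16b on chromosome 1 had almost no counts, and 3 of the 10 neighbours examined passed the filter. Of the 5 protein-coding genes on each side in GENCODE order, the nearest, Cryzl2 and Brinp2, had at most 1 count in any library. Tex35, Astn1, Pappa2 and Tnr had 0 counts in all 9 libraries, and Angptl1 had at most 4. Ralgps2, an exchange factor for Ral GTPases and the farthest of the 5 upstream, rose in both lines: it had 0.858, 0.788 and 0.493 CPM in control, 2.12, 3.09 and 3.83 CPM with knockdown, and 1.84, 3.12 and 3.32 CPM with overexpression. Ralgps2 rests on few estimated counts: 14, 13 and 10 in control, 47, 52 and 63 with knockdown and 39, 53 and 58 with overexpression. Its log2 fold change was 2.08 ± 0.43 (SE, adjusted p = 0.0013) with knockdown and 1.95 ± 0.43 (SE, adjusted p = 0.00348) with overexpression. Unlike those of Sec16b, the Ralgps2 libraries of the perturbed lines overlapped each other.

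Of the other tested neighbours, Cop1, a ubiquitin ligase, was at 107.5 ± 2.41, 91.6 ± 1.82 and 97.0 ± 5.01 CPM in control, knockdown and overexpression (mean ± SD, n = 3) and fell with knockdown (log2 fold change -0.23 ± 0.05 SE, adjusted p = 0.00317), a call lost with the length offset (-0.09, adjusted p = 0.557). With overexpression Cop1 had -0.15 ± 0.05 SE and adjusted p = 0.0574, and it was called without knockdown 3 (0.049) or overexpression 2 (0.0347). Cop1 shares 12.5% of its 31-base words with other genes. Rasal2, the second gene upstream, was at 18.3 ± 3.38, 21.9 ± 3.18 and 20.02 ± 2.81 CPM in the same order and was not called (log2 fold change 0.25 ± 0.14 SE, adjusted p = 0.193 with knockdown), but was without control 3 (0.42, adjusted p = 0.0461). An antisense gene within Sec16b, Gm15486, reached at most 0.0451 CPM. Of the members' 31-base words, 0% of those of Sec16a, Sec16b, Sar1a, Sar1b, Sec23a and Sec31a occur in another gene's transcripts, 1.09% for Sec23b, 1.17% for Sec24a, 3.82% for Sec13 and 0.0158% for Sec24d.

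Among 11397 genes with a mean of at least 1 CPM, those most like Sec16b across the 9 libraries were Fndc3c1 (Pearson r = 0.989), Usp24 (0.987), Prkcq, Tbl1xr1, Msn and Lactb (0.984 each). The measure is r of log2(CPM + 0.5), given as a description, since the 9 libraries fall into 3 lines, and 468 genes reached at least 0.9. Being picked for this pattern, each of the 6 stood higher in both perturbed lines and higher with knockdown than with overexpression. Their log2 fold changes with knockdown were 0.96, 0.64, 0.87, 1.29, 0.49 and 0.38 in that order, and with overexpression 0.44, 0.24, 0.44, 0.61, 0.19 and 0.18. All were smaller than those of Sec16b. Among the members Sec23a had the highest r with Sec16b (0.91), then Sec24d (0.83) and Sec13 (0.60), and Sec23b the lowest (-0.63). Sec16a had -0.15, Sar1a -0.07, Sar1b 0.05, Sec31a -0.19 and Sec24a -0.35.

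The remaining coat and exit site genes were a list of 16, all tested, with 5 called with knockdown (31.2%, near the 35.4% of all genes, 4 higher and 1 lower, median log2 fold change 0.00). Trip11, a golgin that binds the tether machinery, rose most clearly (0.63, adjusted p = 1.42e-06), and Mia2, which helps to load large cargo at exit sites, rose as well (0.26, adjusted p = 0.000746). Pdcd6, a calcium-binding protein that binds Sec31a, fell (-0.33, adjusted p = 0.00131). With overexpression Trip11 alone was called (6.25% of the list, against 24.3% of all genes; 0.29, adjusted p = 0.00341), and with the length offset its log2 fold change was 0.52 but was not called (adjusted p = 0.104). The Sar1 exchange factor Preb was not called (-0.09, adjusted p = 0.247 with knockdown and 0.01, adjusted p = 0.944 with overexpression), and neither were Sec24b (-0.03 and -0.04) and Sec24c (0.07 and -0.06).

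Cargo receptors and p24 proteins collect cargo for the coat. With knockdown 16 of 25 tested genes (28 listed) were called (64.0%, 6 higher and 10 lower, median -0.13), against 35.4% of all genes. With the length offset the list had 7 called, while calls over all genes fell from 4619 to 2794. The cornichon receptors Cnih1 (-0.31, adjusted p = 0.000138) and Cnih4 (-0.38, adjusted p = 0.000358) fell, the latter not called with the length offset (0.16). The p24 gene Tmed5 was called higher (0.44, adjusted p = 0.00105), but had -0.13 (adjusted p = 0.542) with that offset. With overexpression 5 were called (20.0%, against 24.3% of all genes, 1 higher and 4 lower), among them Ergic3 (-0.31, adjusted p = 0.000785), Tmed10 (-0.22, adjusted p = 0.00136) and Tmed9 (0.30, adjusted p = 0.00509; 0.054 with the offset). Tmed10 shares 9.19% of its 31-base words with other genes.

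Tethers and SNAREs, which receive the vesicles at the Golgi, were 31 genes, of which 14 were called with knockdown (45.2%, against 35.4% of all genes, 4 higher and 10 lower, median -0.09). The TRAPP tether subunits Trappc2l (-0.55, adjusted p = 3.11e-05), Trappc4 (-0.55, adjusted p = 4.3e-05) and Trappc5 (-0.49, adjusted p = 0.000104) fell. With overexpression 1 gene was called (3.23%, against 24.3% of all genes), the TRAPP subunit Trappc6b (-0.31, adjusted p = 0.0105). The Trappc6b call was lost without control 3 (0.0588) or overexpression 3 (0.0542) and with the length offset (0.128). The list's count with overexpression was 2 without knockdown 1, 2 or 3 and 0 without overexpression 3.

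Genes of the COPI coat, which returns proteins to the ER, were 24, of which 4 were called with knockdown (16.7%, all lower) and 2 with overexpression (8.33%, both lower). Of all genes, 35.4% were called with knockdown (17.4% lower) and 24.3% with overexpression (11.1% lower). The receptor Kdelr2, which retrieves escaped ER proteins, fell with knockdown (-0.34, adjusted p = 0.000119), and the COPI subunit Copb2 fell in both (-0.16, adjusted p = 0.00933, and -0.22, adjusted p = 0.00126). The knockdown call of Copb2 was lost without knockdown 3 (0.0525) and with the offset (0.0502). Arf1, the COPI GTPase, was called lower with knockdown (-0.13, adjusted p = 0.0328), but not without control 1, 2 or 3 (0.0738, 0.0652 and 0.135), knockdown 1 or 3 (0.159 and 0.0924) or with the offset (0.0902), and it shares 17.8% of its words with other genes. Kdelr1 was called lower with overexpression (-0.23, adjusted p = 0.0297), but not without any of the control libraries (0.0922, 0.0709 and 0.0643), any of the overexpression libraries (0.102, 0.0741 and 0.051) or with the offset (0.075). The COPI counts were likewise unstable. With knockdown they were 2 without control 2, control 3, knockdown 1 or knockdown 3 and 7 without knockdown 2. With overexpression they were 1 without control 1, control 2 or any overexpression library, and 6 without knockdown 2 or knockdown 3.

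Genes of ER translocation, which act before the coat, were 24, with 13 called with knockdown (54.2%, 3 higher and 10 lower, median -0.06) and 9 with overexpression (37.5%, 3 higher and 6 lower, median -0.02), against 35.4% and 24.3% of all genes. The signal peptidase gene Sec11a fell in both (-0.59, adjusted p = 8.8e-06, and -0.40, adjusted p = 0.000563), as did Ssr2 (-0.33, adjusted p = 5.78e-06, and -0.15, adjusted p = 0.0104) of the translocon-associated complex. The overexpression call of Ssr2 was lost without control 1 (0.0557) and with the offset (0.0502). The signal recognition receptor gene Srpr fell too (-0.20, adjusted p = 0.000451, and -0.32, adjusted p = 1.11e-05), with 26.9% of its words in other genes. Ssr3 rose in both (0.18, adjusted p = 0.0033, and 0.21, adjusted p = 0.00227), and Sec62 rose with knockdown (0.37, adjusted p = 9.2e-06) and was not called with overexpression (0.11, adjusted p = 0.0929).

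Regulators of the secretory pathway were 13 tested genes of 16, with 5 called with knockdown (38.5%, 2 higher and 3 lower) and 4 with overexpression (30.8%, 3 higher and 1 lower), against 35.4% and 24.3% of all genes, the knockdown share being near that background. Ddit3, a target of the ER stress response, rose in both (0.28, adjusted p = 0.00371, not called with the offset at 0.153, and 0.45, adjusted p = 0.00011). A gene of the same symbol shares part of its sequence (4.56% of words). Atf4 rose with overexpression (0.30, adjusted p = 6.66e-05) and was not called with knockdown (0.07, adjusted p = 0.208). Xbp1, the factor that binds the unfolded protein response element after splicing, fell with overexpression (-0.23, adjusted p = 0.00577, and 0.0651 with the offset). With knockdown Xbp1 was called lower (-0.15, adjusted p = 0.0399), but not without control 1 (0.159), control 3 (0.143), knockdown 2 (0.164), knockdown 3 (0.0549) or overexpression 1, 2 or 3 (0.0603, 0.0572 and 0.0581).

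Among the regulators called with knockdown, Creb3l2, a factor known to drive Sec23a in cartilage, was called higher (0.17, adjusted p = 0.0144), but not without control 3 (0.0553) or with the offset (0.103). Tfeb was called lower with knockdown (-0.34, adjusted p = 0.024), but not without control 1 (0.0663), control 3 (0.0709), knockdown 1 (0.0802), knockdown 3 (0.0868) or with the offset (0.327). The regulators' count with knockdown was 3 without control 1 or knockdown 1, 1 without control 3 and 2 without knockdown 3.

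**Figure D4:**
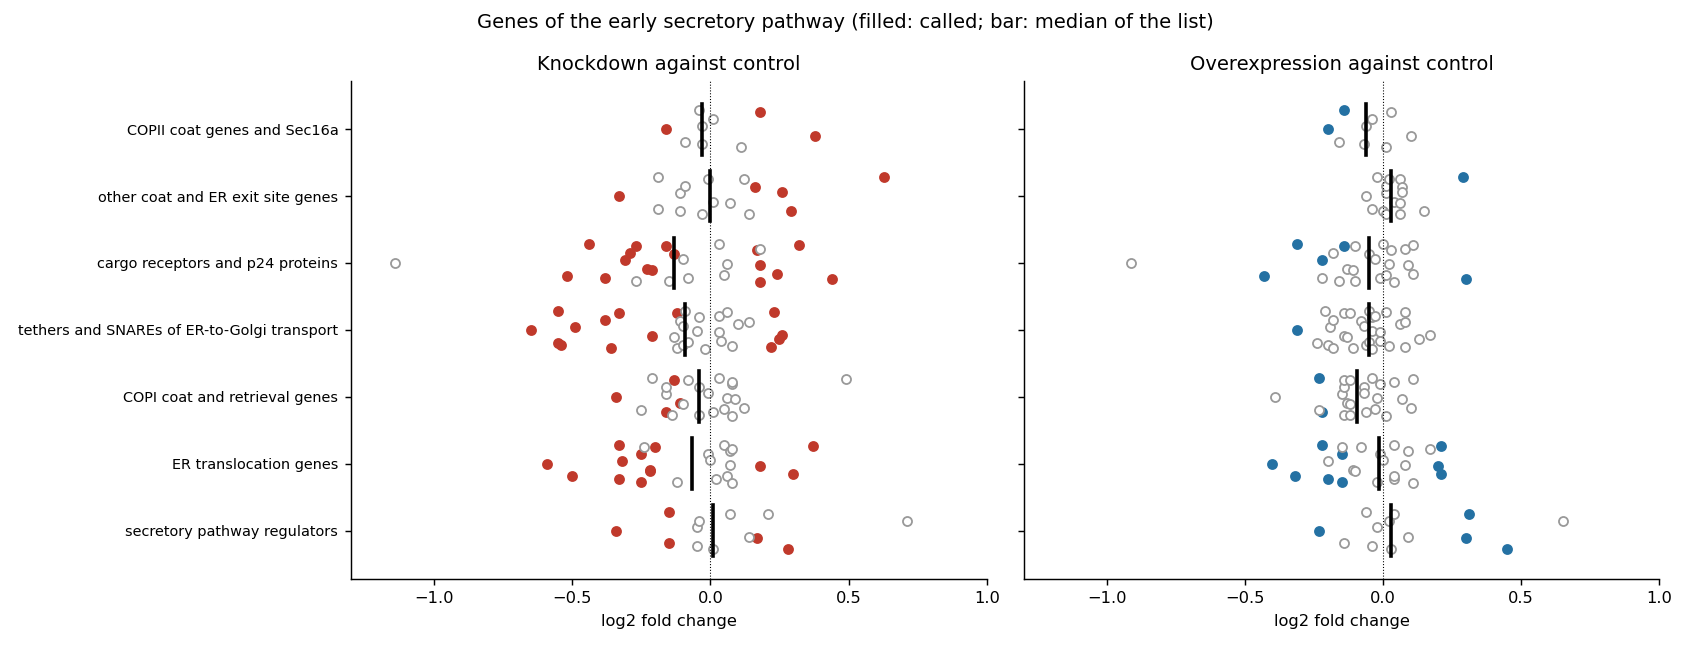
Log2 fold change of each tested gene (horizontal axis) in the 9 members other than Sec16b and the 6 pathway lists, with knockdown on the left and overexpression on the right. Filled points were called and black bars are medians; the called COPI genes all lie below 0, and the cargo receptor median with knockdown is at -0.13.

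Across all genes the knockdown values moved with gene length. Over all 13064 genes the median log2 fold change with knockdown was -0.08 for the 2263 genes with an effective length under 1000 bases, -0.02 for the 6651 of 1000 to 3000 bases and 0.05 for the 4150 over 3000 bases. Of the short genes 8.71% were called higher and 18.3% lower, and of the long genes 26.6% and 16.4%. Spearman's rho of change with length across genes was 0.12 with knockdown and 0.01 with overexpression. The lists had median effective lengths of 3157 bases for other coat genes, 1479 for cargo receptors, 2224 for tethers, 1599 for COPI genes, 1716 for ER translocation and 2314 for regulators. Their median log2 fold changes with knockdown were 0.00, -0.13, -0.09, -0.04, -0.06 and 0.01 in that order. The lists of the longest genes, other coat genes and regulators, had the highest medians, and cargo receptors, the shortest, had the lowest. The lists in between did not follow the order of length. The part of length in the list counts was not tested.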

How the data were processed

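The authors deposited 1 table for each of the 9 libraries. Per the file headers it lists for every transcript an estimated count, which can be fractional, its TPM and an effective length. The build mm39 and the tools DESeq2 1.34.0, MultiQC 1.11 and Salmon 1.4.0 are named per the submitters' processing notes. Neither trimming nor the annotation release is given in the sources used here. The kit marks no strand, and Salmon splits reads among similar transcripts.

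Transcripts were matched to GENCODE M21 (GRCm38) symbols (137161 of 140789, 97.42%; the rest held 0.554% to 0.654% of counts and were left out). Estimated counts were summed per gene and rounded, and TPM summed. All 9 libraries entered 1 fit of edgeR 4.0.16 (R 4.3.3) with filterByExpr, TMM and line as the only term. SE was derived from the F statistic, and CPM uses TMM library sizes. Replicates differed by more than sampling noise (chi-square per degree of freedom 4.77 to 10.98). Shared sequence is the percentage of a gene's 31-base words found in other genes. Alternatives included limma 3.58.1 and DESeq2 1.42.0, and steps were tested on simulated data. In the simulated data 31.1% of genes changed 1.25-fold were recovered with knockdown and 42.6% with overexpression. At 1.5-fold the shares were 78.4% and 72.7%. Far fewer genes were changed there than were called in the data: of 12854 genes tested, 45 were changed 1.25-fold with knockdown. The shares thus describe that simulation and do not give the recovery of the coat genes here. A small change may still go uncalled.

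Named were the members, Sirpa, the 5 neighbours on each side, the 6 genes most like Sec16b and, per list, up to 3 called genes of lowest adjusted p in each comparison with control. Members and lists were chosen with earlier results of these data known.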

Additional observations from a re-analysis of the deposited data

How the results depend on the processing

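Of the members' calls, those of Sec16b with overexpression (log2 fold change 1.29 to 1.82, adjusted p 8.92e-11 to 0.00517), Sec23a with knockdown and against overexpression, and Sec24d with knockdown kept direction and call in 17 alternatives, 9 of which leave out 1 library. The alternatives for Sec16b with overexpression all use control libraries that helped choose the gene. The untested Sec16b knockdown value ran from 3.06 to 3.59. The cause of the other shifts was not tested.

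Members called with overexpression were 1 to 3 when libraries were left out. Members called between the perturbed lines were 1 to 2 in that way and 1 with no filter, with the length offset or with only those 2 lines in the fit. The replicate numbers did not pair the libraries (9 same-number correlations of -0.093 to 0.127, 1 of them above 0.1; own number best in 3 of 18 cases). With the replicate block, members called between the perturbed lines were 1, as Sec24d had adjusted p = 0.0592, and Sar1a with overexpression had 0.0505; it moved no other count of members or lists by over 1.5 times.

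The length offset lowered all calls from 4619 to 2794 with knockdown, from 3172 to 1575 with overexpression and from 2887 to 1423 between the perturbed lines. With it the lists' calls with knockdown and overexpression were 3 and 0 for other coat genes, 7 and 2 for cargo receptors and 8 and 0 for tethers. The COPI list had 1 with knockdown, ER translocation 4 with overexpression, and regulators 0 and 2. Uncalled signs turned with it for Sec16a (0.02 with knockdown, 0.08 with overexpression, 0.05 between them), Sar1a (0.06 with knockdown) and Sec31a (0.03 in both), and the called sign of Tmed5 (-0.13).

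For tethers with overexpression DESeq2 called 2, no filter 2, a fit of the 2 lines 4, and single-library omissions 0 to 2. For COPI genes with overexpression DESeq2 called 5, limma-voom 4, the 2 lines 7 and omissions 1 to 6; with knockdown the 2 lines gave 2 and omissions 2 to 7. For regulators with knockdown omissions gave 1 to 5. Calls over all genes with overexpression were 3082 with DESeq2, 3183 with limma-voom, 3357 with no filter and 3535 with the 2 lines. Omissions gave 2440 to 3297, against 3172 in the main fit. With knockdown the calls over all genes were 4424 with the 2 lines and 3885 to 4555 with omissions, against 4619.

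Other uncalled signs turned when 1 library was left out. Over those omissions the log2 fold change with knockdown ran from -0.05 to 0.0038 for Sar1a and from -0.02 to 0.04 for Sar1b. With overexpression it ran from -0.12 to 0.0041 for Sec16a, -0.11 to 0.01 for Sar1b, -0.02 to 0.06 for Sec24d and -0.03 to 0.04 for Sec13. Between the perturbed lines it ran from -0.09 to 0.03 for Sec16a, -0.11 to 0.00097 for Sec24a and -0.06 to 0.01 for Sec31a.

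By estimated counts in place of TPM, Sec16b held 13.6% of its pair with knockdown. In control, knockdown and overexpression Sar1b held 34.5%, 35.1% and 36.0%, Sec23a 31.8%, 40.2% and 36.5%, and Sec24a 12.0%, 10.8% and 11.1%. Depth limits Sec16b most in control, where it rests on 21 to 38 estimated counts a library.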
